A study of Homo sapiens with 12 samples.

Results

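The enzymes that carry farnesyl diphosphate through squalene to cholesterol were followed in CAOV3 cells, a human line derived from high-grade serous ovarian carcinoma. They comprised 9 genes picked by symbol, by no rule on a measured value but with earlier results of these data known: FDFT1, SQLE, LSS, CYP51A1, MSMO1, NSDHL, HSD17B7, SC5D and DHCR7. All 9 were among the 19677 genes listed, and all 9 passed the low-count filter that left 12470 genes for testing. The 12 RNA-seq libraries formed 4 groups of 3, all from wild-type CAOV3 cells grown in medium with 10% fetal bovine serum. Control cells received DMSO, the ascites group 10% ovarian cancer ascites with DMSO for 16 hours, the bezafibrate group 200 uM bezafibrate for 16 hours, and the combination group ascites and bezafibrate together for 16 hours. Patients with this tumour often accumulate fluid in the abdominal cavity, called ascites. Bezafibrate is a lipid-lowering drug of the fibrate class, which acts on PPAR nuclear receptors. The question posed by the series was how the drug alters the response of the cells to ascites. No time is labelled for the control libraries, and DMSO is labelled only where no drug was given. They state neither how many patients gave ascites nor whether replicates came from separate cultures, so p-values measure only the spread between these libraries.

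Total counts per library ran from 11831093 to 18762759, and the 9 enzymes together took 0.0721% to 0.0923% of them. Levels are given in CPM, the counts scaled to a common library size after TMM normalisation, and the spread between replicates over all genes had a common biological coefficient of variation of 3.06%. The first principal component, with 37.0% of the variance, split the libraries with the drug from those without it. On the second, with 9.88%, the third combination library sat at 22.4 while the other 11 libraries lay between -9.84 and 4.37. Epithelial markers fitted the label in part: KRT8 and KRT18 were abundant, but the serous ovarian markers WT1 and MUC16 had at most 4 and 3 counts in any library, and PAX8 at most 21. CDH1 and KRT7, also epithelial, were high where the drug was present: mean CDH1 was 18.6 CPM in control, 15.9 with ascites, 53.3 with bezafibrate and 51.7 in the combination. KRT8 did not follow them, with means of 3005, 3129, 2914 and 3082 CPM in the same order. Of markers for cells that ascites could carry, 5 of 7 leukocyte and 3 of 3 platelet genes had 0 counts in every library, PTPRC and CD3E among them. No marker of any list was called with ascites, but many fell under the low-count filter and could not be called. Those tested were 2 of 7 leukocyte, 0 of 3 platelet, 2 of 3 erythroid, 3 of 5 fibroblast, 1 of 4 mesothelial and 1 of 3 hepatocyte markers. The summed leukocyte markers spanned 2.86 to 3.61 CPM in control and 2.15 to 3.43 CPM with ascites, and 2.80 to 4.46 with bezafibrate and 3.11 to 4.93 in the combination. Summed erythroid markers spanned 0.588 to 1.09, 0.606 to 1.41, 0.543 to 0.807 and 1.01 to 1.41 CPM in the same order. Their combination libraries thus lay wholly above the bezafibrate libraries, at low levels. Mesothelial sums spanned 1.36 to 1.98, 0.997 to 1.41, 1.39 to 1.67 and 1.64 to 2.89 CPM. Hepatocyte sums overlapped in both settings. Summed fibroblast markers, nearly all LUM, spanned 192 to 197 CPM in control, 186 to 193 with ascites, 167 to 177 with bezafibrate and 159 to 177 in the combination. In bulk RNA, fewer cells that express a gene and less RNA per cell cannot be told apart.

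As background, FDFT1 (squalene synthase) joins farnesyl diphosphate units into squalene, the first step committed to sterols, and SQLE (squalene epoxidase) oxidises squalene in a rate-limiting reaction. LSS closes the ring to lanosterol, CYP51A1 begins the removal of its methyl groups, and MSMO1, NSDHL and HSD17B7 remove the others as a relay of oxidase, decarboxylating dehydrogenase and ketoreductase. SC5D then introduces a double bond in the ring and DHCR7 reduces another on the way to cholesterol. Transcription of the pathway is driven by the SREBP factors, chiefly SREBF2, whose release is held back by INSIG proteins when membrane sterol is plentiful. These factors act at sterol regulatory elements, usually together with the CCAAT-binding factor NF-Y or the GC-box factor Sp1.

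Upstream sequence was examined for the members with a RefSeq promoter entry (build GRCh38.p14), which were 7 of the 9, all but FDFT1 and SQLE. Windows of 250 bases before the RefSeq start were searched on both strands for TCACNCCAC (a sterol regulatory element), for CCAAT as the NF-Y motif, for GGGCGG as a GC box and for CACGTG as an E-box. CCAAT was present in 6 of 7 members and in 32% of all 35116 windows of the same length, and GGGCGG in 6 of 7 members and 42.6% of all windows. CACGTG occurred in 1 of 7 members, SC5D, against 6.34% of all windows, and TCACNCCAC in 0 of 7 against 0.883%. Among the members, NSDHL carried 5 CCAAT matches and MSMO1 4, LSS carried 6 GGGCGG matches and DHCR7 4, CYP51A1 had no CCAAT and NSDHL no GGGCGG. A match is a description of letters and not a binding site, and no match says only that those letters are not in this window.

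The upstream stretches below are shown because the genes differ in their drug response: MSMO1 and NSDHL were higher with bezafibrate in both settings, and LSS and DHCR7 were not called in either. Each is printed 5′ to 3′ on the strand of its gene and ends where an exon of that gene begins in GENCODE 29. For MSMO1, NSDHL and LSS this is sequence upstream of the annotated gene, while the DHCR7 stretch lies in an intron of the longest DHCR7 transcript annotated there and upstream of the start in RefSeq. Capitals mark CCAAT and GGGCGG on either strand, which read ATTGG and CCGCCC on the opposite one. The MSMO1 stretch lies at chr4:165327419-165327622 on the plus strand, and that of NSDHL at chrX:152830813-152830966 on the plus strand. LSS is shown at chr21:46228825-46229024 and DHCR7 at chr11:71448436-71448643, both on the minus strand. Within these shorter stretches the CCAAT matches number 3 in MSMO1, 4 in NSDHL, 1 in LSS and 2 in DHCR7, and the GGGCGG matches 2, 0, 4 and 3 in the same order. The pair of NSDHL matches in ccaattgg overlaps, 1 on each strand. SC5D, not printed, was also called higher with bezafibrate in both settings, and each of its 2 windows held 1 CCAAT match, the number in LSS. CYP51A1, called higher with the drug alone, had 0 in its window. Whether match number goes with drug response was not tested.
MSMO1: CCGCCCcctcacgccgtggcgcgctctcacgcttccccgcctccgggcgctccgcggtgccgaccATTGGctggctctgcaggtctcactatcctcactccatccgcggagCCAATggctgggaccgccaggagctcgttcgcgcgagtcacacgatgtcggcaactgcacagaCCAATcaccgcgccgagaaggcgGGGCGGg
NSDHL: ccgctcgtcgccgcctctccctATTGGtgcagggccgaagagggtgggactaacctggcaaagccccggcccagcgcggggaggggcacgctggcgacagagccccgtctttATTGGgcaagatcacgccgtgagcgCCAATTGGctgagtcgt
LSS: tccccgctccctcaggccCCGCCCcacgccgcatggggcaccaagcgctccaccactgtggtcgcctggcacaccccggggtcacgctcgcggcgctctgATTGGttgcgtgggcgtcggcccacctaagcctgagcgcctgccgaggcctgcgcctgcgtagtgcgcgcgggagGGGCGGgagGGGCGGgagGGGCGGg
DHCR7: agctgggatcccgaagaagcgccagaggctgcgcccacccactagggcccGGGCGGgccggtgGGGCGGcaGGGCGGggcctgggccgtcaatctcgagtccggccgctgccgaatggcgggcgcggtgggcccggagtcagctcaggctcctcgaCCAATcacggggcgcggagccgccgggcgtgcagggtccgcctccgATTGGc

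In control cells the enzymes differed widely in level when counts were set per kilobase of annotated exon (CPM per kb, mean ± SD, n = 3). DHCR7 was highest at 56.9 ± 2.17, followed by CYP51A1 at 47.3 ± 0.963 and SC5D at 40.8 ± 2.0. A middle group held SQLE at 26.3 ± 0.302, FDFT1 at 25.6 ± 0.227, NSDHL at 23.1 ± 2.35 and MSMO1 at 20.6 ± 0.892. LSS stood at 14.7 ± 0.978, and HSD17B7 was lowest at 3.05 ± 0.352, from only 45 to 88 counts per library. Neighbours in this order overlapped between libraries in 2 cases, FDFT1 with NSDHL and NSDHL with MSMO1. HSD17B7 has a near-identical pseudogene, HSD17B7P2, which the tables do not list, so its level depends on how shared reads were assigned. GENCODE 29 also places other genes over FDFT1, LSS, CYP51A1 and DHCR7, mostly on the opposite strand. Whether counting used strand is not given in the sources used here, so reads from neighbours on the opposite strand cannot be told apart from the enzymes' own. Over CYP51A1, the protein-coding genes AC000120.2 and AC000120.3 lie on the same strand, where a strand setting would not separate them.

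**Figure D1:**
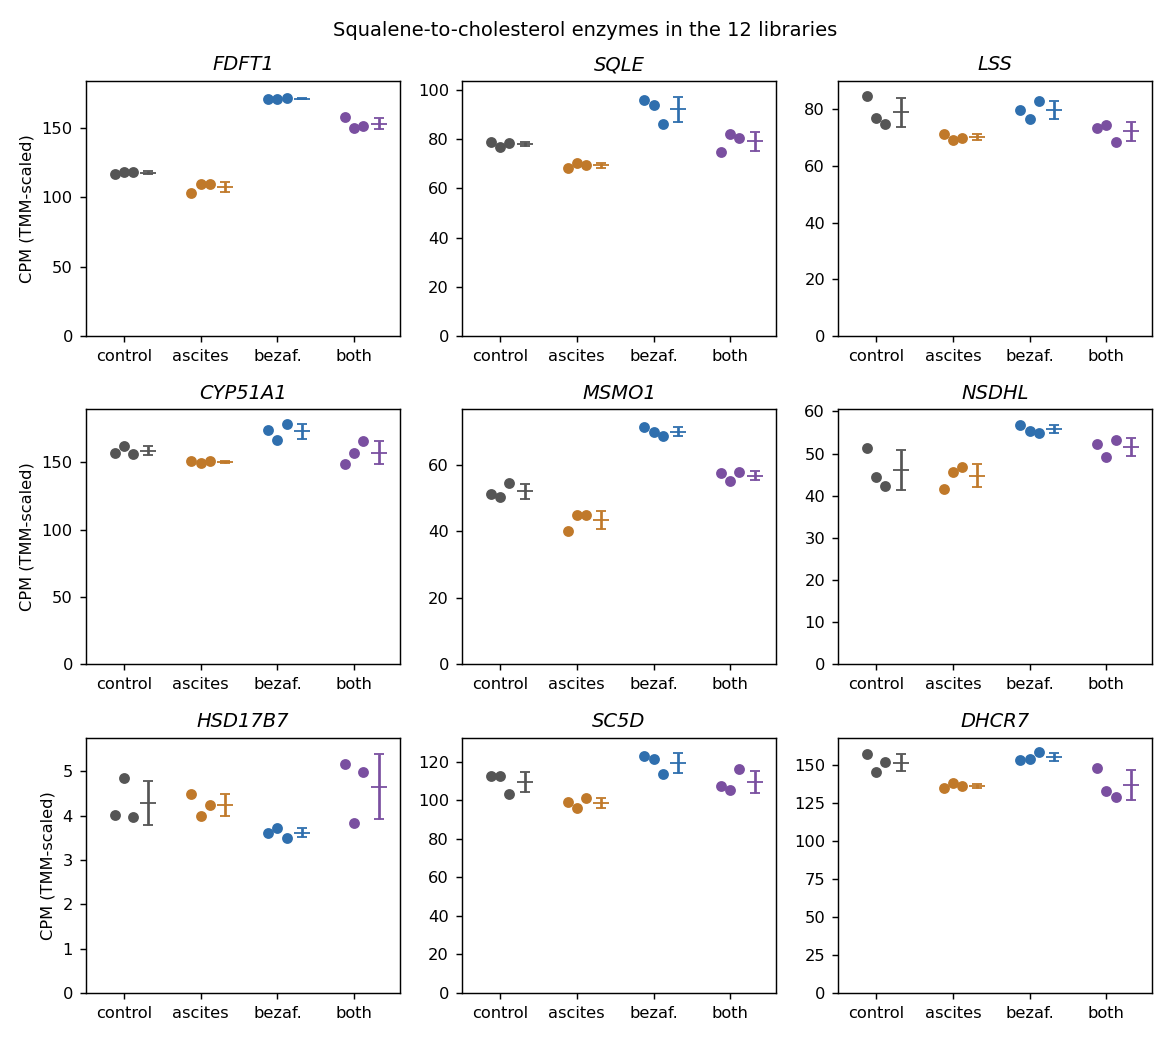
Level of each of the 9 enzymes in CPM (vertical axes, from 0, scaled per gene) in the 3 libraries of each group, with the group mean and SD as a bar beside the points. FDFT1 and MSMO1 show the bezafibrate libraries far above control, while the mean levels of DHCR7 and LSS are lower in the groups with ascites than in those without it.

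Ascites alone was followed by slightly lower levels of most of these enzymes, and the shift passed the test for 1 of them. A gene was called when edgeR's quasi-likelihood test gave it a p under 0.05 after Benjamini-Hochberg adjustment over all 12470 genes. MSMO1, the oxidase that opens the demethylation relay, fell, and 0.0882% of all genes were called lower in this comparison. MSMO1 measured 51.2, 50.4 and 54.7 CPM in the control libraries and 40.2, 44.97 and 44.8 CPM with ascites. Every ascites library lay below every control library. The log2 fold change was -0.26 (SE 0.0551, adjusted p = 0.0388), and the level with ascites was 83.2% ± 5.15 of control (SD, n = 3). That call was lost when any 1 of the control, ascites or bezafibrate libraries was left out, with adjusted p from 0.0519 to 0.559, and was kept without each combination library. It was also lost with limma voom (0.0538) and DESeq2 (0.0607). Without the third combination library, MSMO1 reached 0.00663 and DHCR7 was called as well at 0.0463.

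The other enzymes were not called with ascites alone, yet their libraries mostly separated. In 7 of 9 enzymes all 3 ascites libraries lay below all 3 control libraries, a pattern seen in 7.06% of all genes, and all 9 log2 fold changes were negative, with a median of -0.15 against -0.0018 over all genes. FDFT1 measured 116.6, 118.6 and 118.1 CPM in control and 103.1, 109.8 and 109.3 CPM with ascites, a log2 fold change of -0.13 (SE 0.0390, adjusted p = 0.46). SQLE went from 78.7, 77.0 and 78.4 CPM to 68.3, 70.5 and 69.4 CPM, a difference of -0.17 (SE 0.0488, adjusted p = 0.45). For both, the 2 sets of libraries did not overlap. DHCR7 measured 157.1, 145.6 and 152.3 CPM in control and 134.9, 137.9 and 136.4 CPM with ascites, a log2 difference of -0.15 (SE 0.0420, adjusted p = 0.352). LSS measured 84.9, 76.9 and 75.0 CPM and 71.2, 69.3 and 70.0 CPM, a difference of -0.17 (SE 0.0502, adjusted p = 0.46). These 2 also separated, as did CYP51A1 at 94.8% ± 0.511 and SC5D at 90.1% ± 2.29 of control. NSDHL and HSD17B7 overlapped between the groups, at 97.0% ± 5.87 and 99.0% ± 5.89 of control.

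With bezafibrate present, ascites went with lower levels again. Other libraries were compared here than above, but both comparisons came from 1 fit to all 12 libraries. SQLE and MSMO1 fell, 2 of 9 against 0.0882% of all genes called lower. MSMO1 measured 71.4, 69.8 and 68.6 CPM with bezafibrate and 57.4, 55.2 and 57.7 CPM in the combination. The ranges lay well apart, and the log2 difference was -0.30 (SE 0.050, adjusted p = 0.00168). SQLE, the epoxidase, measured 96.0, 93.9 and 86.2 CPM with the drug alone and 74.7, 82.1 and 80.5 CPM in the combination, a difference of -0.23 (SE 0.0463, adjusted p = 0.0212). The lowest bezafibrate library of SQLE stayed above the highest combination library. Its call was lost without the first bezafibrate library (0.259), the second (0.261) or the first combination library (0.208), and with only those 2 groups in the fit (0.259). FDFT1 missed the threshold, with a log2 difference of -0.16 (SE 0.0358, adjusted p = 0.0533), as did DHCR7 with -0.18 (SE 0.0413, adjusted p = 0.0739). DESeq2 called FDFT1 at 0.04996 and limma voom at 0.0426. Without the first combination library both were called, FDFT1 at 0.0256 and DHCR7 at 0.00145, and CYP51A1 was called at 0.00788 without the third. The combination libraries lay wholly below the bezafibrate libraries for 7 of 9 enzymes, against 4.83% of all genes, and the median log2 difference was -0.14 against -0.00059 over all genes. HSD17B7 went the other way, with every combination library above every bezafibrate library and a difference of 0.38 (SE 0.165, adjusted p = 0.945).

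Averaged over both drug settings, 6 of the 9 enzymes fell with ascites, where 0.233% of all genes were called lower. The 6 were FDFT1 (log2 -0.15, adjusted p = 0.00252), SQLE (-0.20, 0.0012), LSS (-0.16, 0.0343), MSMO1 (-0.28, 1.19e-05), SC5D (-0.14, 0.039) and DHCR7 (-0.17, 0.00233), with SEs from 0.026 to 0.037. The reductase DHCR7, the cyclase LSS and the synthase FDFT1 thus fell by amounts within 1 SE of each other. FDFT1, SQLE, MSMO1 and DHCR7 stayed called whichever library was left out. LSS was lost without the first control, any 1 of the ascites, or the first or the third bezafibrate library (0.0736 to 0.184). SC5D was lost without the first or second library of the control, bezafibrate or combination group or any 1 of the ascites group (0.0823 to 0.210). CYP51A1, at -0.11 (SE 0.0272, adjusted p = 0.0798), was called at 0.00178 without the third combination library, where 7 of 9 enzymes were called, and at 0.0194 with no filter on low counts. NSDHL at -0.08 (SE 0.0427, adjusted p = 0.752) and HSD17B7 at 0.18 (SE 0.117, adjusted p = 0.83) were not called.

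Bezafibrate alone raised 6 of the 9 enzymes, by log2 changes from 0.12 to 0.54, in a comparison that shares its control libraries with that of ascites alone. FDFT1, the committed step, rose most, followed by MSMO1, NSDHL, SQLE, SC5D and CYP51A1, while LSS, HSD17B7 and DHCR7 were not called. In this comparison 10.1% of all genes were called higher and 7.55% lower, and 0 of the 9 enzymes was called lower by edgeR, by DESeq2 or at an unadjusted p under 0.05. All 3 bezafibrate libraries lay above all 3 control libraries for the same 6 enzymes, a pattern found in 17.2% of all genes. The median log2 fold change of the 9 was 0.13, against -0.0037 over all genes.

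FDFT1 measured 171.0, 171.3 and 171.8 CPM with the drug, against the control values of 116.6 to 118.6 CPM. Its libraries within each group were nearly equal, and the log2 fold change was 0.54 (SE 0.0367, adjusted p = 1.29e-14), a level of 146% ± 0.343 of control (SD, n = 3). MSMO1 reached 134% ± 2.64 of control, a log2 fold change of 0.43 (SE 0.0505, adjusted p = 1.71e-08). NSDHL, the dehydrogenase that acts after MSMO1, measured 51.3, 44.5 and 42.4 CPM in control and 56.8, 55.4 and 55.0 CPM with bezafibrate. Its control libraries were more scattered than its treated ones but did not reach them, and the change was 0.27 (SE 0.0591, adjusted p = 0.000717). SQLE rose by 0.24 (SE 0.0462, adjusted p = 0.000121), to 118% ± 6.63 of control. CYP51A1, the lanosterol demethylase, rose by 0.12 (SE 0.0379, adjusted p = 0.0172), and SC5D, the desaturase, by 0.13 (SE 0.0439, adjusted p = 0.0408). Both rises were small, at 109% ± 3.66 and 109% ± 4.75 of control. CYP51A1 lost its call without the first or the third control or the first or the third bezafibrate library (0.0627 to 0.0990), and SC5D without the third control or the first or second bezafibrate library (0.150 to 0.281), with upper-quartile scaling (0.0807) and with DESeq2 (0.0822).

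The 3 enzymes without a call were the cyclase, the ketoreductase and the last reductase. DHCR7 measured 153.6, 154.0 and 158.4 CPM with bezafibrate, a log2 fold change of 0.03 (SE 0.0409, adjusted p = 0.67), and LSS measured 79.9, 76.5 and 82.9 CPM, a change of 0.01 (SE 0.0484, adjusted p = 0.926). For both the libraries overlapped with control. HSD17B7 measured 4.02, 4.85 and 3.97 CPM in control and 3.62, 3.71 and 3.50 CPM with the drug, and every treated library lay below every control library. Its difference was -0.24 (SE 0.167, adjusted p = 0.381) and carried the largest SE of the 9, at the lowest counts.

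When ascites was present, bezafibrate raised 5 of the same 6 enzymes. The background was 10.5% of all genes called higher and 7.29% lower, and again 0 of 9 was called lower by edgeR, by DESeq2 or at an unadjusted p under 0.05. FDFT1 rose by 0.51 (SE 0.0380, adjusted p = 1.39e-13), from 107 ± 3.74 CPM with ascites to 153 ± 4.0 CPM in the combination (SD, n = 3). MSMO1 rose by 0.39 (SE 0.0546, adjusted p = 5.69e-07), from 43.3 ± 2.68 to 56.7 ± 1.35 CPM. These 2 were again the furthest from the ascites libraries. NSDHL rose by 0.21 (SE 0.0615, adjusted p = 0.0138), SQLE by 0.18 (SE 0.0488, adjusted p = 0.00542) and SC5D by 0.15 (SE 0.0457, adjusted p = 0.0165). NSDHL was not called without the first ascites library (0.125), and SC5D not without the second ascites (0.0878) or the third combination library (0.0899). CYP51A1, the sixth, differed by 0.06 (SE 0.0390, adjusted p = 0.325). LSS and DHCR7 differed by 0.04 and 0.0089, with SEs of 0.0509 and 0.0425. The combination libraries lay wholly above the ascites libraries for 5 of 9 enzymes, against 16% of all genes, and the median was 0.15 against -0.0037 over all genes.

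**Figure D2:**
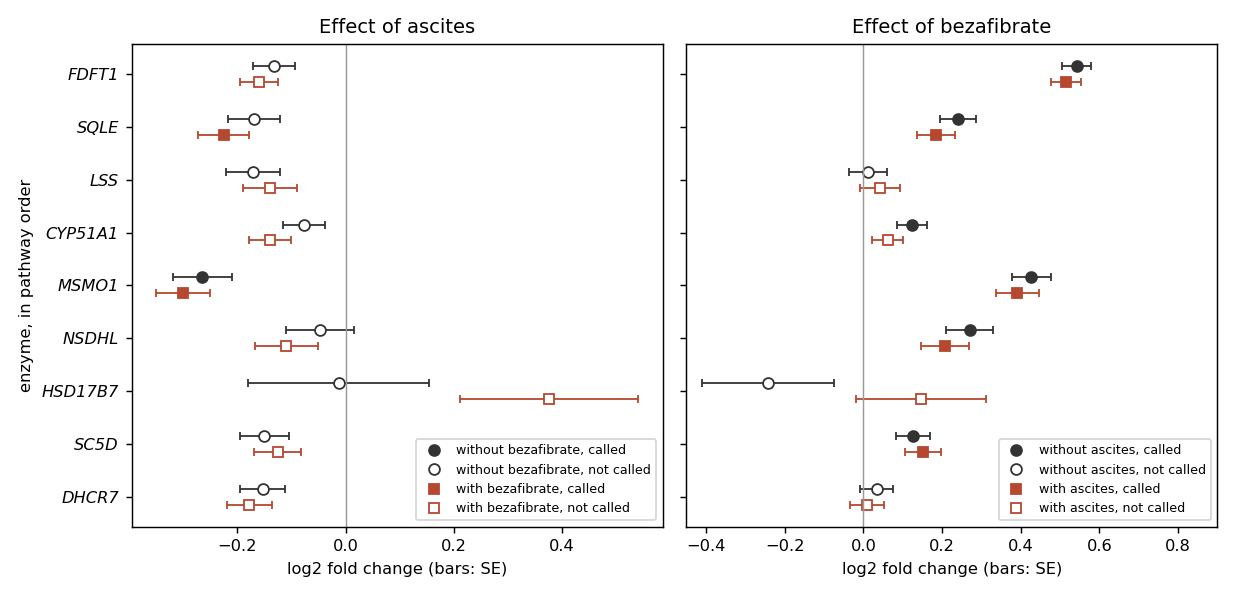
Log2 fold change of each enzyme, in pathway order, for ascites (left) and bezafibrate (right), each without the other treatment (circles) and with it (squares). Bars are SEs from edgeR and filled symbols passed an adjusted p of 0.05. Ascites values lie between -0.30 and 0 except for HSD17B7, and the bezafibrate values of FDFT1 and MSMO1 are 0.54 and 0.43 without ascites and 0.51 and 0.39 with it.

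Averaged over both ascites settings, the drug raised the same 6 enzymes as without ascites, where 15% of all genes were called higher. The log2 changes were 0.53 for FDFT1, 0.41 for MSMO1, 0.24 for NSDHL, 0.21 for SQLE, 0.14 for SC5D and 0.09 for CYP51A1, with adjusted p from 7.21e-19 (FDFT1) to 0.00857 (CYP51A1). All 6 stayed called whichever library was left out. LSS at 0.03 (SE 0.0351, adjusted p = 0.637), DHCR7 at 0.02 (SE 0.0295, adjusted p = 0.659) and HSD17B7 at -0.05 (SE 0.117, adjusted p = 0.818) were not called. The epithelial genes CDH1 and KRT7 were also higher, and the summed fibroblast markers, nearly all LUM, lower, in the libraries with the drug. Other epithelial genes, KRT8 and KRT18, had lower means with bezafibrate alone than in control. With ascites present the mean of KRT8 was lower with the drug (3082 against 3129 CPM) and that of KRT18 was not (1845 against 1838 CPM). EPCAM, also epithelial, had means of 27.6 CPM in control, 30.8 with ascites, 31.2 with bezafibrate and 31.3 in the combination. The part of any marker in these results was not tested.

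Set against control, the combination changed 2 of the 9 enzymes, FDFT1 and DHCR7. FDFT1 rose by 0.38 (SE 0.0377, adjusted p = 2.55e-10), to 130.1% ± 3.40 of control, and DHCR7 fell, with a log2 change of -0.14 (SE 0.0421, adjusted p = 0.0119), to 90.1% ± 6.49 of control (SD, n = 3). These 2 calls are a share near the background, where 18.2% of all genes were called in either direction. DHCR7 measured 147.9, 133.0 and 129.3 CPM in the combination, and the first of these overlapped with the control libraries. Its call was lost without the first control (0.0967), the second combination (0.0740) or the third combination library (0.0605), which left 1 call. SQLE stood at 101% ± 4.99 of control, CYP51A1 at 99.2% ± 5.26 and SC5D at 100.2% ± 5.25, with libraries that overlapped with control. MSMO1 libraries all lay above control and LSS libraries all below it, at log2 0.13 (SE 0.0532, adjusted p = 0.102) and -0.13 (SE 0.0502, adjusted p = 0.0715). NSDHL, at 0.16 (SE 0.0614, adjusted p = 0.0656), was called without the first control (0.00470) or the second combination library (0.0464), and LSS without the third control library (0.0424).

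**Figure D3:**
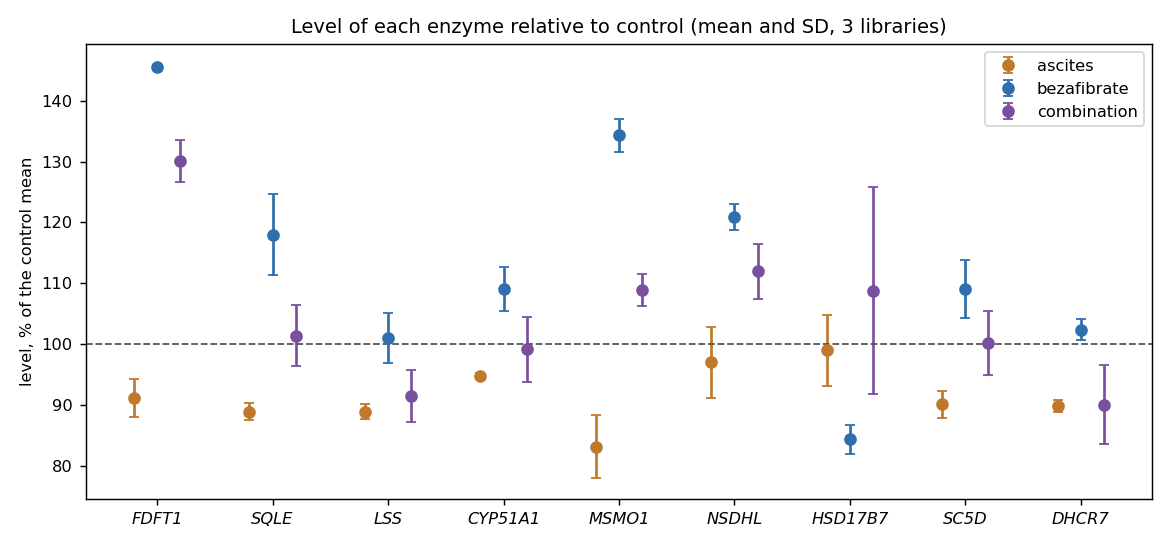
Mean level of each enzyme as a percentage of the control mean, with SD over 3 libraries, for ascites, bezafibrate and the combination (vertical axis starts at 75%). The combination lies between the single treatments for 8 of the 9 enzymes, all but HSD17B7, and close to ascites for LSS and DHCR7, and FDFT1 keeps 130% of control.

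Whether ascites and bezafibrate acted other than additively on the log2 scale was tested as an interaction. By edgeR's quasi-likelihood test 0 of 9 enzymes was called, and 0% of all genes were. At an unadjusted p under 0.05 the counts were 0 of 9 enzymes and 445 of all genes, and DESeq2 called 0 of 9 enzymes and 1 of all genes. The interaction values of 8 enzymes lay between -0.063 (CYP51A1) and 0.032 (LSS), with SEs from 0.0530 (FDFT1) to 0.0854 (NSDHL). HSD17B7 had 0.39 with an SE of 0.235. A call after adjustment needs a change of several SEs, so interactions well above these SEs could also have been missed.

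Other genes of cholesterol synthesis were counted from lists of known pathway membership. EBP, the sterol isomerase, and TM7SF2 and LBR, a pair of sterol reductases, were called in no comparison by edgeR. DESeq2 called 0 of 3 as well, and an unadjusted p under 0.05 was found for 1 of 3, lower in the combination against control. Of all genes, edgeR called 10.1% higher and 7.55% lower with bezafibrate alone, and 0.0882% lower with ascites alone. For 3 genes a count of 0 is near these shares and does not set them apart.

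Upstream, in the mevalonate arm that supplies farnesyl diphosphate, 2 of 7 genes counted, the decarboxylase MVD and the isomerase IDI1, rose with bezafibrate alone, with log2 changes of 0.22 (SE 0.0657, adjusted p = 0.0155) and 0.20 (SE 0.0426, adjusted p = 0.000683). HMGCS1, the synthase that makes HMG-CoA, fell, with a change of -0.16 (SE 0.030, adjusted p = 0.000121). Of all genes, 10.1% were called higher and 7.55% lower in this comparison. With ascites present IDI1 rose and HMGCS1 fell again. IDI1 also fell with ascites alone, with a log2 change of -0.23 (SE 0.0451, adjusted p = 0.0225), and both IDI1 and HMGCS1 fell with ascites in the presence of the drug. In each of these ascites comparisons 0.0882% of all genes were called lower, and 6 of the 7 log2 changes were negative. MVK was called in neither, at 85.1% ± 6.52 of control with ascites and 74.8% ± 8.08 of the bezafibrate mean in the combination. Averaged over both drug settings, 3 of 7 were called lower with ascites, against 0.233% of all genes. The IDI1 call with ascites alone was lost without the second or the third control or any 1 ascites library (0.0727 to 0.293), and that of MVD without the second control (0.0869) or the third bezafibrate library (0.168). HMGCS1 kept its call against bezafibrate alone only without the third combination library, with 0.0589 to 0.394 when any other was left out. None of the 7 other users of farnesyl diphosphate, which make dolichol, ubiquinone, haem A and prenylated proteins, was called by edgeR or by DESeq2 in either drug comparison, and 0 of 7 had an unadjusted p under 0.05 there.

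Among the sterol-sensing and uptake genes, INSIG1, which retains SREBP in the endoplasmic reticulum and is itself a SREBP target, fell with ascites, with a log2 change of -0.40 (SE 0.0582, adjusted p = 0.00022), and rose with bezafibrate by 0.43 (SE 0.0523, adjusted p = 2.70e-08). INSIG1 measured 45.6, 44.2 and 41.2 CPM in control, 32.8, 33.6 and 33.3 with ascites, 60.6, 57.5 and 59.4 with bezafibrate and 47.9, 45.3 and 47.4 in the combination. The ascites libraries were lowest, the bezafibrate libraries highest, and control and combination overlapped. Of 8 genes counted in this list, 1 fell with ascites alone, against 0.0882% of all genes, and 2 rose with bezafibrate alone, against 10.1%. With ascites present the drug raised 1 of 8, INSIG1, and lowered 1, against 10.5% and 7.29% of all genes. SREBF2, the gene of SREBP2, rose with bezafibrate alone, with a change of 0.16 (SE 0.0470, adjusted p = 0.015). SREBF2 lost its call without the second or the third control or the third bezafibrate library (0.0509 to 0.186), and with ascites present its change was 0.08 (SE 0.0490, adjusted p = 0.335). SREBF1, the gene of SREBP1, was the 1 lowered by the drug with ascites present, by edgeR at -0.19 (SE 0.0433, adjusted p = 0.00106), and without ascites its change was -0.10 (SE 0.0419, adjusted p = 0.0995). Among 7 electron donors and partners of the oxidative steps, 1 was called with the drug alone, a share near the 10.1% of all genes called higher and 7.55% called lower. It was POR, the reductase that passes electrons to CYP51A1 and SQLE. POR rose by 0.56 (SE 0.0424, adjusted p = 3.32e-13), from 95.1 ± 0.941 to 139.8 ± 1.55 CPM (SD, n = 3), and with ascites alone it was not called.

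**Figure D4:**
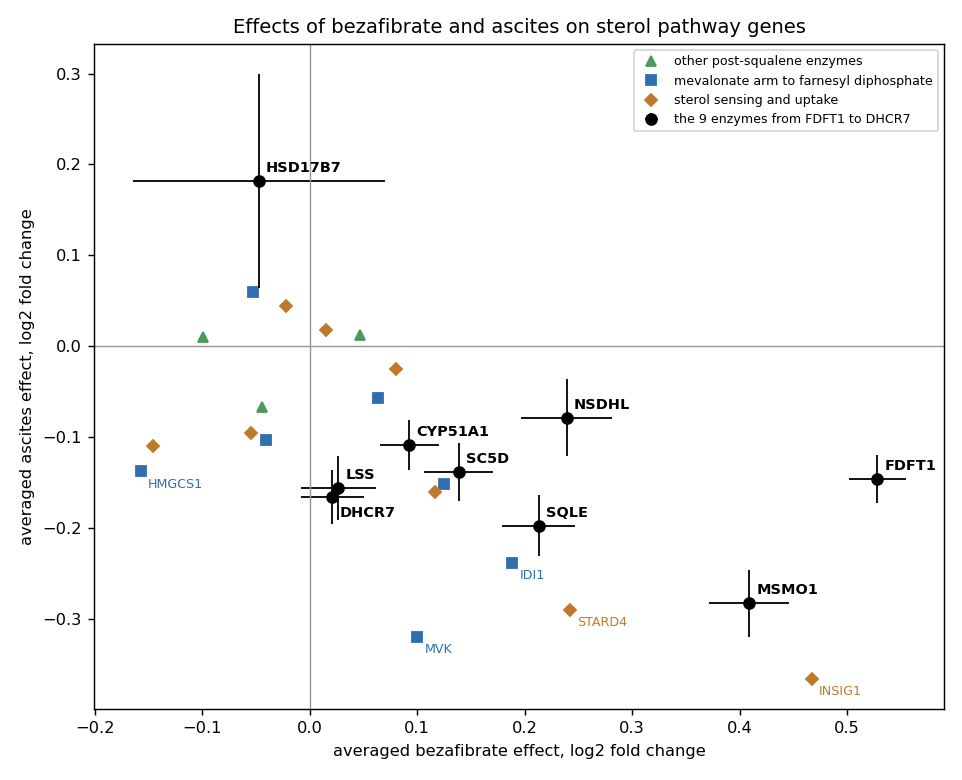
Averaged bezafibrate effect (horizontal) against averaged ascites effect (vertical), both log2 fold changes, for the 9 enzymes (black, with SE bars) and other genes of 3 sterol lists. The 6 enzymes called with the drug spread from 0.093 to 0.53 along the horizontal axis, while LSS and DHCR7 lie near 0 on it and share the lower position of the others on the vertical one.

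Across the 12 libraries the enzymes differed in how closely they followed one another. Pearson's r of each enzyme with the mean of the other 8 was 0.928 for MSMO1, 0.910 for SC5D, 0.884 for SQLE, 0.822 for FDFT1, 0.801 for NSDHL and 0.792 for CYP51A1. It was lower for LSS (0.579) and DHCR7 (0.547), and -0.475 for HSD17B7. The closest pair was SQLE with MSMO1 (0.94) and the furthest SQLE with HSD17B7 (-0.55). These values describe 12 libraries that share 4 treatments and are not a test. Among 11850 genes whose mean reached 1 CPM, those whose profile was most like the mean of the 9 enzymes included INSIG1 (r = 0.990), SCD (0.974), FADS1 (0.950), IDI1 (0.935), ZMYND8 (0.914), NDRG1 (0.906), PRKX (0.903) and IL15 (0.902). SCD, the stearoyl-CoA desaturase, had a log2 fold change of -0.22 (SE 0.0255, adjusted p = 1.24e-06) with ascites and 0.30 (SE 0.0253, adjusted p = 4.29e-12) with bezafibrate. FADS1, a desaturase of polyunsaturated fatty acids, had 0.13 with bezafibrate (SE 0.0309, adjusted p = 0.00198) and -0.14 with ascites (SE 0.0315, adjusted p = 0.0744). ZMYND8, PRKX and IL15 were not called in either single-treatment comparison. NDRG1 was called by edgeR with bezafibrate (adjusted p = 4.17e-05) but not with ascites (0.185).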

How the data were processed

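Whole-number counts per gene were deposited by the authors as 1 table per library. The submitters' processing notes name Trimmomatic 0.39, STAR 2.7.9a, RSEM 1.3.3, DESeq2 1.28.1 and build GRCh38. Annotation release, strand setting and any rounding of estimated counts are not given in the sources used here.

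Genes were kept by filterByExpr (minimum count 10, minimum total 15), which removed 7207. Counts were scaled by TMM and tested with edgeR 4.0.16 (glmQLFit robust, glmQLFTest) in R 4.3.3, with 1 mean per group over all 12 libraries and 8 residual degrees of freedom. P-values were adjusted by Benjamini-Hochberg over 12470 genes, and a call needs an adjusted p under 0.05. SEs are the absolute log2 change over the square root of F. Averaged effects are the mean of a treatment's contrasts without and with the other treatment. Alternatives used DESeq2 1.42.0, limma 3.58.1, other scalings, no filter, a replicate block, only the groups compared, a threshold of 0.01 and each library left out. The code was tested on simulated data. Replicates differed beyond sampling noise (chi-square per degree of freedom 1.44 to 4.45, using genes that reached 20 counts in a pair).

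Named genes were all 9 enzymes, some genes of 6 pathway lists called in any contrast, and those among the 10 most alike by Pearson's r of log2 CPM (prior count 2). Some genes that this rule names are not reported here and are left out of the list counts. EBP, TM7SF2 and LBR were also named as list genes without a call, and some genes of the marker lists. The members, lists and motifs were chosen with earlier results of these data known. Exon lengths come from GENCODE 29.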

Additional observations from a re-analysis of the deposited data

How the results depend on the processing

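No value changed sign among the calls under the alternatives run, and for the 9 enzymes 1337 gene-level checks kept the same side of the threshold, 57 lost a call and 18 gained one. The counts with bezafibrate alone and for the averaged bezafibrate effect stayed within 1.5 times of those reported, while several other counts moved further, and the cause was not tested. Enzymes called with ascites alone, 1 as reported, numbered 0 with limma voom, 0 with DESeq2, 0 at an adjusted p under 0.01 and 2 with only the groups compared in the fit. All genes called there, 11 as reported, numbered 59 with no filter on low counts, 33 with only the groups compared, 7 with limma voom and 4 at 0.01. For the combination against bezafibrate, 2 enzymes and 16 genes as reported, the numbers were 4 and 52 with no filter, 1 and 7 with only the groups compared, and 1 and 6 at 0.01. At 0.01 the combination against ascites gave 3 enzymes and 1475 genes, the combination against control 1 enzyme, and the averaged ascites effect 19 genes, which was 113 with no filter. The interaction over all genes gave 36 with no filter and 1 with DESeq2. SC5D lost its bezafibrate call with upper-quartile scaling (0.0807) and DESeq2 (0.0822), and FDFT1 was called against bezafibrate alone, at 0.0174 to 0.04996, in 5 alternatives. The sum of HSD17B7 with HSD17B7P2 was not run, since the tables do not list the latter.

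Libraries with the same replicate number did not deviate together: r ran from -0.135 to 0.0613 over 18 pairs, against -0.0709 to 0.179 over 36 pairs with other numbers. These values cannot show whether same-numbered libraries shared a culture or a day, which the labels do not state. With the replicate block, 0 enzymes were called with ascites alone (MSMO1 at 0.0577) and 1 gene in the interaction, and SC5D lost its bezafibrate call (0.0551) and its averaged ascites call (0.0732).

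With each library left out in turn, the enzymes called numbered 0 to 2 with ascites alone, 4 to 7 for the averaged ascites effect, 4 to 6 with bezafibrate alone, 6 in every fit for the averaged bezafibrate effect, 4 to 5 for the combination against ascites, 1 to 3 against bezafibrate, 1 to 3 against control and 0 for the interaction. All genes called numbered 3 to 24 with ascites alone, 21 to 118 for the averaged ascites effect, 9 to 28 for the combination against bezafibrate and 0 to 3 for the interaction, the highest of the first 3 ranges being without the third combination library. The median log2 change of the enzymes ran from 0.12 to 0.16 with bezafibrate alone, from 0.11 to 0.18 for the combination against ascites and from -0.057 to -0.014 for the interaction. HSD17B7, at 45 to 88 counts per library, is the enzyme whose changes depth limits most.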

Other observations

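Of 9 genes of cholesterol export, storage and oxysterol response, 5 rose with bezafibrate alone and 1 fell, where 10.1% of all genes were called higher and 7.55% lower. NR1H2, NPC1 and NPC2 were not called there (adjusted p = 0.157, 0.0948 and 0.275 in edgeR). NR1H3, the oxysterol-sensing nuclear receptor LXR alpha, changed by log2 1.10 (SE 0.0996, adjusted p = 3.28e-11) in edgeR, from 10.3 ± 1.32 to 22.1 ± 1.72 CPM (SD, n = 3). The export pumps ABCG1 and ABCA1 rose by 0.95 (SE 0.111, adjusted p = 1.29e-08) and 0.80 (SE 0.0709, adjusted p = 1.81e-11), SOAT1, which esterifies cholesterol for storage, by 0.35 (SE 0.0453, adjusted p = 9.76e-08), and MYLIP, a ubiquitin ligase, by 0.33 (SE 0.0931, adjusted p = 0.0101). LIPA, the lysosomal lipase, fell, with a change of -0.18 (SE 0.0542, adjusted p = 0.0187). MYLIP lost its call without the third control (0.0612) or the second bezafibrate library (0.0646), and LIPA without the first or the third control or the first or the third bezafibrate library (0.0814 to 0.114). None of the 9 was called with ascites alone by edgeR or DESeq2, where 1 of 9 had an unadjusted p under 0.05.

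HMGCS1, the synthase that makes HMG-CoA, measured 368.7, 385.3 and 375.3 CPM in control, 341.0, 342.0 and 344.0 with ascites, 341.0, 341.9 and 330.0 with bezafibrate and 298.1, 314.5 and 308.8 in the combination. All treated libraries lay below all control libraries, and the combination was lowest at 81.6% ± 2.22 of control, with a log2 change of -0.29 (SE 0.0305, adjusted p = 7.89e-10).

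Scaled to the mean log2 CPM of the other 8 enzymes in the same library, a measure added after the data were seen, FDFT1 was 0.39 higher in the 6 libraries with bezafibrate (1.298 to 1.412) than in the 6 without it (0.930 to 1.02). LSS was lower by this measure in all 6 libraries with the drug (0.0051 to 0.228 against 0.256 to 0.415), and DHCR7 also separated, with a mean difference of -0.18. Because 6 of the 9 enzymes were called higher with the drug, an enzyme that does not change falls by this measure. Unscaled, LSS and DHCR7 had averaged bezafibrate effects of 0.03 and 0.02, neither called. No enzyme separated the 6 libraries with ascites from the 6 without it by this measure.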
